A study of Mus musculus with 15 samples.

Results

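Hippocampal transcripts were compared between mice that lack the mineralocorticoid receptor (MR) and mice that lack MR and the glucocorticoid receptor (GR) together, so that the difference shows what a further loss of GR changes where MR is already absent. The comparison used 7 of the 15 arrays of the study: 4 of MREmx1-cre mice, from a cross of a floxed MR allele (Nr3c2) with Emx1-Cre, and 3 of GRMREmx1-cre mice, from a cross of floxed MR and floxed GR (Nr3c1) alleles with Emx1-Cre. Emx1-Cre and the loss of MR are thus common to both groups, and the deletion of GR is added in the second. The other arrays, 4 of dflox controls (floxed GR and MR alleles, no Cre by the design as read here) and 4 of GREmx1-cre mice (floxed GR allele with Emx1-Cre), entered the fit and served to read the same genes where MR is present. All mice were C57BL/6 males of about 2.5 months, and total RNA came from the whole hippocampus of both hemispheres. By the design as read here MREmx1-cre mice carry no floxed Nr3c1 allele, and GREmx1-cre mice no floxed Nr3c2 allele. The labels do not list all alleles of a mouse, and they do not say whether an array held RNA of 1 mouse or of several, so p-values measure the spread between these RNA samples.

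GR and MR are steroid receptors of the nuclear receptor family. They bind corticosterone in the cytoplasm together with HSP90 and other chaperones, move to the nucleus and act on genes through a shared palindromic DNA element or through contact with other transcription factors. MR binds the hormone with higher affinity, and GR is occupied at the daily peak of secretion and under stress. Hippocampal pyramidal and granule neurons hold both receptors, whereas glia are known mainly for GR. Emx1-Cre acts in the dorsal telencephalic lineage, which gives rise to the excitatory neurons and most astrocytes of the hippocampus, so that microglia, vessels and interneurons are expected to keep both genes. In whole tissue, fewer cells of a type and less RNA per cell cannot be told apart.

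Levels are log2 intensities relative to the 75th percentile of the array, and differences are log2 GRMREmx1-cre minus MREmx1-cre with the standard error (SE) of the fit. Over the 7 arrays that percentile lay between 841 and 982 intensity units, and 29350 to 30215 probes per array were well above background. Each genotype lay alone on 1 of 4 slides, so the slide's part in a difference and that of the genotype cannot be told apart. The number of arrays limits the precision. Defining markers of hippocampal tissue, among them Calb1 and Prox1 of dentate granule cells and Slc1a2 and Aldh1l1 of astrocytes, were well above background on all 7 arrays.

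Nr3c1, the gene for GR, checked the labels. Its level was 2.28, 2.16, 2.08 and 2.17 on the 4 MREmx1-cre arrays and -0.08, -0.03 and 0.09 on the 3 GRMREmx1-cre arrays. The groups stood far apart, and the remaining signal in GRMREmx1-cre was 22.1% of the MREmx1-cre level (-2.18 ± 0.0838, adjusted p = 5.07e-08). The other 3 Nr3c1 probes differed by -2.06, -1.82 and -1.78. In dflox the level was 1.64 ± 0.166 and in GREmx1-cre -0.60 ± 0.0595 (SD, n = 4 each). The probe used for Nr3c2, the gene for MR, was dim in both groups (-3.62 ± 0.129 in MREmx1-cre, n = 4; -3.82 ± 0.167 in GRMREmx1-cre, SD, n = 3) and did not pass the test (-0.19 ± 0.0928, adjusted p = 0.31), and the other 2 probes stood at 0.09 and 0.45. In dflox, which keep MR, the Nr3c2 probe stood at -3.51 ± 0.131 (SD, n = 4), so it does not check the loss of MR. On the probe at 0.45, dflox ran from -4.02 to -3.38, MREmx1-cre from -4.90 to -4.09 and GRMREmx1-cre from -4.38 to -3.21. MREmx1-cre thus lay just below dflox there, but the highest GRMREmx1-cre array lay above every dflox array. On the probe at 0.09 these groups overlapped. Where the probes of either gene lie relative to the deleted exons was not examined, and a probe in exons that the deletion leaves in place is no check of it.

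Of 22872 genes tested, 681 passed the threshold (adjusted p below 0.05), which is 2.98%: 538 were higher in GRMREmx1-cre (2.35%) and 143 lower (0.625%). Transcripts without a symbol, 6927 of the 22872, count as genes here under the name the array gives them. They may not all be separate genes. Of the 681 called, 438 had a symbol, 320 among the risers and 118 among the fallers. A change of at least 1.5-fold was seen for 286 of the risers (1.25% of tested genes) and 27 of the fallers (0.118%). Risers and fallers differed in brightness. The median level in MREmx1-cre was -3.69 for risers and 0.54 for fallers, against -1.42 over all tested genes. Among the 11436 brighter genes, whose mean over the 15 arrays was above the median of all tested genes, 122 rose (1.07%) and 102 fell (0.892%). Thus 22.7% of the risers and 71.3% of the fallers were brighter genes. The median difference of all tested genes was 0.00, with 0.07 among the dimmer and -0.03 among the brighter genes. The part of signal brightness in the excess of rises was not tested. Scaling each array to its median moved the share of rises among called genes from 79.0% to 62.8% (285 up, 169 down). In 679 of the 681 called genes the 2 groups did not overlap, as in 17.1% of all tested genes. Lack of overlap was also a condition for naming the largest rises and falls, so it is no support for those genes. Each gene was read from 1 probe, and of the 98 called genes with several tested probes 20 had probes of opposite sign. The call held with each of the 15 arrays left out in turn for 185 genes, 166 up and 19 down, of which 31 risers and 13 fallers were brighter genes. The count of calls rested most on GRMREmx1-cre replicate 2: without it 217 genes were called, and 378, 358 and 423 without replicates 1 and 3 of GRMREmx1-cre and replicate 3 of MREmx1-cre.

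**Figure D1:**
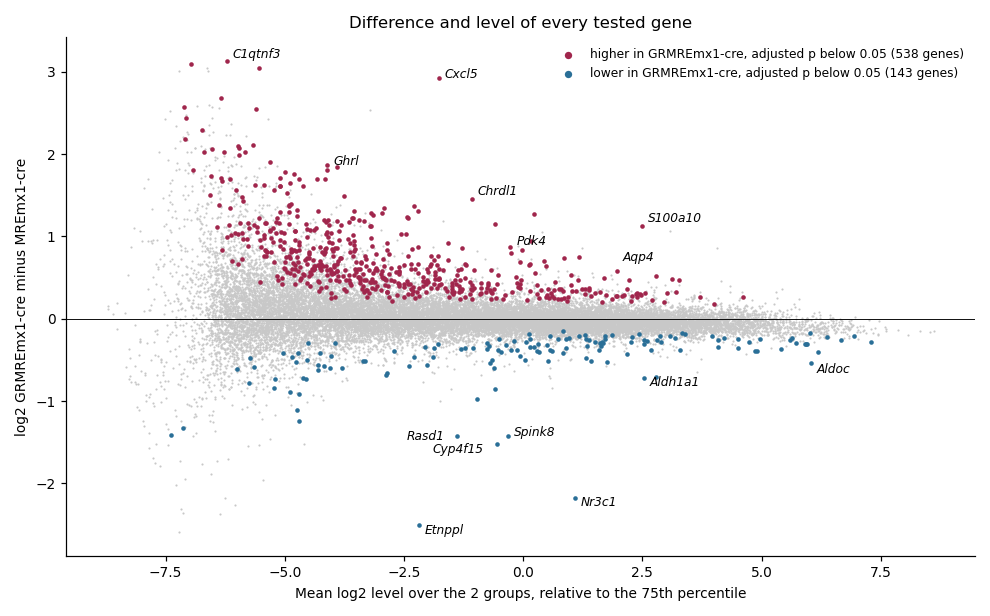
Difference in log2 level between GRMREmx1-cre (n = 3) and MREmx1-cre (n = 4) against the mean level of the 2 groups, both on log2 scales, 1 point per tested gene. Red points are the 538 genes called higher and blue points the 143 called lower in GRMREmx1-cre, and most red points lie at low levels while the blue ones spread over the whole range.

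Beside Nr3c1, the 2 largest falls among genes with a symbol were of metabolic genes, Etnppl and Cyp4f15. Etnppl, the astrocytic lyase that breaks down phosphoethanolamine, stood at -1.10, -0.52, -0.80 and -1.32 in MREmx1-cre and at -4.18, -3.46 and -2.69 in GRMREmx1-cre. No array of one group reached the other, and the level fell to 17.6% (-2.51 ± 0.350, adjusted p = 0.00256). Cyp4f15, a cytochrome P450 of the fatty acid and leukotriene hydroxylase family, stood at -0.11, 0.44, 0.38 and 0.10 against -1.56, -1.21 and -1.17. It fell to 35.0% of the MREmx1-cre level (-1.52 ± 0.159, adjusted p = 0.000432). Both genes kept their call with each array left out in turn.

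Smaller falls of other metabolic genes were measured among the brighter genes. Aldoc, the brain aldolase of glycolysis and an astrocyte marker, went from 6.11, 6.45, 6.38 and 6.26 to 5.68, 5.85 and 5.76 (-0.54 ± 0.0843, adjusted p = 0.00484). Aldh1a1, which oxidises retinal to retinoic acid and also clears aldehydes, went from 2.60, 2.90, 3.11 and 2.93 to 2.23, 2.11 and 2.16 (-0.72 ± 0.122, adjusted p = 0.00798). The acyl-CoA thioesterase Acot11 (-0.51 ± 0.0858, adjusted p = 0.00696, with another probe at -0.19) and the alanine aminotransferase Gpt (-0.41 ± 0.0589, adjusted p = 0.00282) fell as well. The calls of these 4 genes held without any single array, while that of Acot11 was lost in a fit of the 7 arrays alone. Prodh, which starts the breakdown of proline, was lower by a similar amount (-0.52, adjusted p = 0.0151), as were Cbs of the transsulfuration of homocysteine (-0.54, adjusted p = 0.0253) and the retinol saturase Retsat (-0.50, adjusted p = 0.0292). Those calls were less firm. Prodh lost its call without GRMREmx1-cre replicate 1 or 2 (-0.61 to -0.47 over the arrays left out), and Cbs (-0.62 to -0.47) and Retsat (-0.55 to -0.42) without MREmx1-cre replicate 2 or 3 or any GRMREmx1-cre array.

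**Figure D2:**
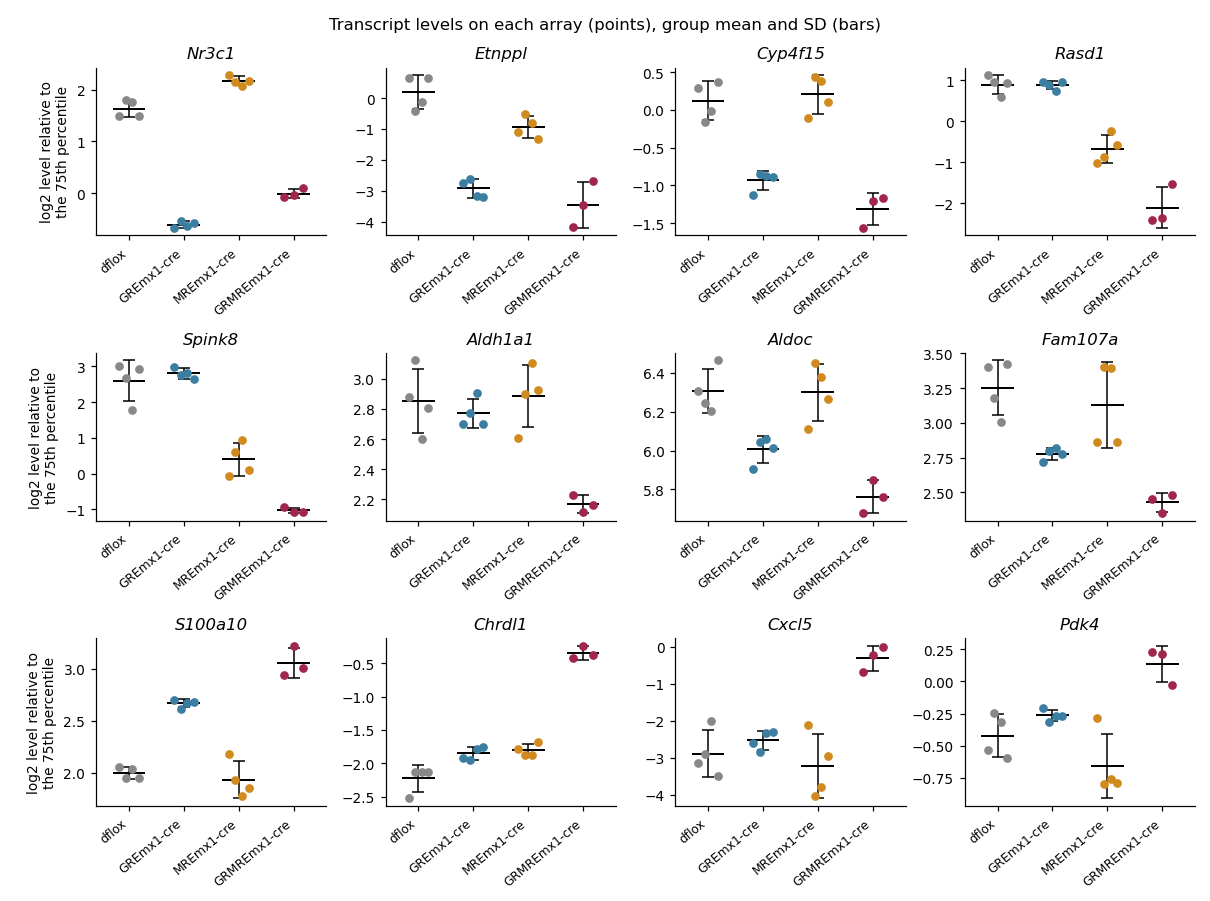
Log2 level relative to the 75th percentile on every array (points) for 12 genes, with the group mean and SD (bars), in dflox (n = 4), GREmx1-cre (n = 4), MREmx1-cre (n = 4) and GRMREmx1-cre (n = 3); each panel has its own scale. In all 12 panels the MREmx1-cre and GRMREmx1-cre points do not overlap, as in 679 of the 681 called genes and 17.1% of all tested genes. Lack of overlap was a condition for naming the largest rises and falls, so it is no support for them. Nr3c1 runs from 2.08 to 2.28 against -0.08 to 0.09.

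Among genes known to be induced by corticosteroids, Rasd1, a Ras-like G protein first found as a dexamethasone-induced gene, had the largest difference. It stood at -1.03, -0.88, -0.24 and -0.58 in MREmx1-cre and at -2.40, -2.37 and -1.54 in GRMREmx1-cre (-1.42 ± 0.220, adjusted p = 0.00449). The lowest MREmx1-cre array lay above the highest GRMREmx1-cre array, and the call held without any single array but not in a fit of the 7 arrays alone. Fam107a, a stress- and glucocorticoid-induced actin-binding protein of neurons and astrocytes, went from 2.86, 3.40, 3.39 and 2.86 to 2.45, 2.35 and 2.48 (-0.70 ± 0.143, adjusted p = 0.0202). Its call was lost without MREmx1-cre replicate 3 or any GRMREmx1-cre array (-0.79 to -0.61). The metal-binding protein gene Mt1 fell (-0.39 ± 0.0673, adjusted p = 0.00862). The call, but not the difference, was lost in a fit of the 7 arrays alone (-0.39) and with its probes averaged (-0.49), and its other probe stood at -0.59 (adjusted p = 0.364). Members of the same list also rose. Pdk4, the kinase that shuts off pyruvate dehydrogenase, stood at -0.28, -0.80, -0.76 and -0.79 against 0.23, 0.21 and -0.02 (0.80 ± 0.125, adjusted p = 0.00487). Tat, tyrosine aminotransferase, was dim but higher on all 3 arrays (0.84 ± 0.101, adjusted p = 0.000904). The phosphatase Ppp5c, which sits in the receptor and HSP90 complex, was called higher on the probe used (0.21 ± 0.0440, adjusted p = 0.0243), while its other probe stood at -0.18 (adjusted p = 0.245) and the mean of its probes at 0.02. Its call was lost without MREmx1-cre replicate 1 or 4 or any GRMREmx1-cre array (0.20 to 0.22 over the arrays left out), and with median scaling.

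Of the 50 tested members of the corticosteroid-induced list, 3 were thus called higher and 3 lower, beside 2.35% and 0.625% of all tested genes, with a median of -0.10 and 30 members below 0, against a median of 0.00 over all tested genes. Mt1 and Ppp5c are named here to complete the count. Most of the best known targets did not pass the test. Fkbp5, the co-chaperone that lowers GR's hormone binding, stood at -0.34 (adjusted p = 0.49) and the kinase Sgk1 at -0.37 (adjusted p = 0.35). Tsc22d3, the glucocorticoid-induced leucine zipper gene, stood at 0.14 (adjusted p = 0.56) and Per1 at 0.15 (adjusted p = 0.78). The group means of Fkbp5 were -1.44 in dflox, -1.08 in GREmx1-cre, -2.92 in MREmx1-cre and -3.26 in GRMREmx1-cre. Those of Sgk1 were 3.82, 2.98, 3.10 and 2.73 in the same order. The difference between MREmx1-cre and dflox was not tested here. At unadjusted p below 0.05, 5 members were higher and 14 lower, beside 10% and 7.18% of all tested genes. Leaving out MREmx1-cre replicate 2 moved the list's median to -0.05, and quantile normalization to -0.05. The lists of steroid receptors, chaperones and coregulators (23 tested, Nr3c1 alone called) and of C/EBP and Kruppel-like factors (13 tested, 0 called by limma, 1 lower at unadjusted p below 0.05) had medians of -0.02 and -0.01.

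Other called falls were in genes from several of the lists. Spink8, a protease inhibitor gene that marks CA1 pyramidal cells, stood at -0.06, 0.61, 0.94 and 0.10 in MREmx1-cre and at -0.94, -1.06 and -1.07 in GRMREmx1-cre. The difference was -1.42 ± 0.280 (adjusted p = 0.0174), and the call was lost without any one of the GRMREmx1-cre arrays (-1.57 to -1.24). In dflox and GREmx1-cre the gene stood at 2.59 ± 0.569 and 2.80 ± 0.141 (SD, n = 4 each). Lefty1, a Nodal antagonist, fell by 0.98 log2 units (adjusted p = 0.035) and Ccdc3, in the CA2 list, by 0.66 (adjusted p = 0.0331). The interneuron peptide gene cortistatin (Cort) fell by 0.85 (adjusted p = 0.0436), and Crhbp, which binds and buffers corticotropin-releasing hormone, by 0.50 (adjusted p = 0.0359). Group means of Cort were -1.24 in dflox, -0.16 in MREmx1-cre and -1.01 in GRMREmx1-cre. Those of Crhbp were -0.17, 0.28 and -0.22 in the same order. In both genes GRMREmx1-cre and GREmx1-cre lay near dflox, and MREmx1-cre lay above them. The difference between MREmx1-cre and dflox was not tested. The AMPA receptor auxiliary subunit gene Shisa7 fell by 0.51 (adjusted p = 0.0254), synaptophysin (Syp) by 0.24 (adjusted p = 0.0297) and the complex I subunit gene Ndufa9 by 0.26 (adjusted p = 0.0415). None of these last 7 calls was firm: each was lost without replicate 2 or 3 of MREmx1-cre and without replicate 2 of GRMREmx1-cre, and all but Ccdc3 also without replicate 3 of GRMREmx1-cre. Replicate 1 of GRMREmx1-cre ended all but those of Cort and Crhbp, replicate 4 of MREmx1-cre those of Lefty1, Cort, Shisa7 and Ndufa9, and replicate 1 of MREmx1-cre those of Cort and Crhbp. Arrays of the other groups also ended those of Cort, Crhbp and Ndufa9. Over the arrays left out the differences ran from -1.16 to -0.82 for Lefty1, from -0.81 to -0.54 for Ccdc3, from -1.03 to -0.75 for Cort, from -0.62 to -0.42 for Crhbp, from -0.62 to -0.45 for Shisa7, from -0.27 to -0.21 for Syp and from -0.30 to -0.22 for Ndufa9.

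The other large falls were of dim transcripts. Gm9895 (-1.24 ± 0.175, adjusted p = 0.00275) and the olfactory receptor genes Olfr288 (-1.11 ± 0.147, adjusted p = 0.00184) and Olfr127 (-0.85 ± 0.127, adjusted p = 0.00382) kept their calls with each array left out. Their means in MREmx1-cre lay between -4.79 and -4.08. With normexp background correction and bright local backgrounds replaced, Olfr288 (-0.31) and Olfr127 (-0.18) lost the call. Gm34996 (-0.91), the glycosyltransferase gene Ugt3a2 (-0.89), Trim29 (-0.73) and the transcription factor gene Tfap2b (-0.72) were also called, and lost the call without at least 1 of the 7 arrays. With that background correction these 4 also lost the call and stood at -0.32, -0.27, -0.16 and -0.24. Those arrays were GRMREmx1-cre replicate 2 for Tfap2b (-0.81 to -0.59) and MREmx1-cre replicate 3 or GRMREmx1-cre replicate 2 or 3 for Ugt3a2 (-0.997 to -0.75). For Trim29 (-0.82 to -0.59) they were MREmx1-cre replicates 1 to 3, any GRMREmx1-cre array and dflox replicate 1, and for Gm34996 (-1.16 to -0.76) all but dflox replicates 1 and 3 and GRMREmx1-cre replicate 2 of the 15.

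The firmest rises were of S100a10, Chrdl1 and F9. S100a10, the p11 partner of annexin A2 that reactive astrocytes and some neurons make, stood at 2.18, 1.93, 1.77 and 1.85 in MREmx1-cre and at 2.94, 3.22 and 3.01 in GRMREmx1-cre. Every GRMREmx1-cre array was higher, and the level was 2.18-fold (1.12 ± 0.0898, adjusted p = 6.23e-05). Chrdl1, a secreted BMP antagonist that astrocytes release, went from -1.79, -1.87, -1.88 and -1.68 to -0.43, -0.24 and -0.38 (1.46 ± 0.0982, adjusted p = 1.87e-05), and a second probe gave 0.96 (adjusted p = 0.000207). The gene of coagulation factor IX (F9), at lower signal, rose by 1.34 ± 0.0914 (adjusted p = 1.87e-05), from a mean of -3.59 ± 0.0704 to -2.25 ± 0.132 (SD, n = 4 and 3). Chrdl1 and F9 were named because their adjusted p was among the 8 smallest of the rises with a symbol, a rule added after the values were seen. The others of those 8 were Tssk6 (0.66), Prodh2 (1.61, with another probe at -0.20), Olfr103 (1.69), Ctrb1 (1.24) and Tlx2 (1.37), all dim. S100a10 is among the 8, and the calls of all 8 held with each array left out.

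Among the brighter genes, Ifit3 of the interferon response rose by 0.95 ± 0.148 (adjusted p = 0.00466) and the chitinase-like Chil1, made by reactive astrocytes, by 0.87 ± 0.116 (adjusted p = 0.00194). The thioesterase Them4 rose by 0.75 ± 0.0983 (adjusted p = 0.00177) and apelin (Apln), a peptide ligand of vessels and neurons, by 0.74 ± 0.0849 (adjusted p = 0.000729, with other probes at 0.96 and 0.79). The potassium channel subunit gene Kcne1l rose by 0.64 ± 0.0694 (adjusted p = 0.000472), the kinetochore gene Nuf2 by 0.65 ± 0.1 (adjusted p = 0.00437) and the citrate-cycle intermediate transporter Slc13a3 by 0.59 ± 0.0713 (adjusted p = 0.000919). In each of these genes all 3 GRMREmx1-cre arrays lay above all 4 MREmx1-cre arrays, which was a condition for naming the largest brighter rises. No single array ended these calls. Igsf1 rose by 1.16 ± 0.177 (adjusted p = 0.00436) on the probe used and stood at 0.29 and 0.43 on the others, which did not pass. Rab7b (0.70, adjusted p = 0.0275) and Ppp1r27 (0.59, adjusted p = 0.0285) were called, and lost the call without GRMREmx1-cre replicate 2 or 3 or MREmx1-cre replicate 1. Rab7b also lost it without MREmx1-cre replicate 4 or GRMREmx1-cre replicate 1 (0.64 to 0.77 over the arrays left out) and Ppp1r27 without MREmx1-cre replicate 2 or 3 (0.51 to 0.69).

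The largest rises in size were mostly of transcripts near background. Cxcl5, a chemokine that attracts neutrophils, was above background on all 7 arrays, at -2.13, -4.04, -3.79 and -2.97 in MREmx1-cre and at -0.68, -0.24 and -0.02 in GRMREmx1-cre, and rose 7.56-fold (2.92 ± 0.423, adjusted p = 0.00315). The MREmx1-cre arrays spread widely, yet none reached the GRMREmx1-cre range, and the call held without any single array. Ghrelin (Ghrl) rose by 1.86 ± 0.199 (adjusted p = 0.000453), from levels between -5.42 and -4.69 to levels between -3.28 and -3.08. C1qtnf3, a secreted C1q-domain protein, was not well above background on any MREmx1-cre array and was at least 5.99-fold higher in GRMREmx1-cre. Its MREmx1-cre levels ran from -8.78 to -6.83 and its GRMREmx1-cre levels from -5.48 to -3.52. C1qtnf3, Tnfsf12, Olfr295 and Olfr1044 were well above background on the 3 GRMREmx1-cre arrays and on no other, so they entered the test through the group where they are high, and their calls are given as a description. For the same reason they were not tested when a GRMREmx1-cre array was left out. In the 12 other such fits C1qtnf3 lost its call without MREmx1-cre replicate 2 or 3. An at-least fold sets the brighter group's mean against the mean of the dim arrays. Each dim array counts at the gene's own level or at the array's lowest signal well above background, whichever is higher. That lowest signal is taken over all probes and is not a detection limit of the gene's probe, so the bound is rough. Pdcl2 was at least 4.38-fold higher (adjusted p = 0.0185), Qrich2 at least 3.42-fold (adjusted p = 0.0278) and Tnfsf12 at least 3.02-fold. With bright local backgrounds replaced before normexp correction, Tnfsf12 lost the call (0.28). Gpr142 (3.04) and the serotonin receptor gene Htr2b (1.90) were called too, but lost the call without 4 and 6 of the 7 arrays, which left the call standing without MREmx1-cre replicates 1 and 2 and GRMREmx1-cre replicate 1 for Gpr142 (2.67 to 3.51 over the arrays left out) and without MREmx1-cre replicate 3 for Htr2b (1.74 to 2.01). The call of Pdcl2 was lost without GRMREmx1-cre replicate 1 or 2 (2.91 to 3.30 over the arrays left out), and that of Qrich2 without MREmx1-cre replicate 2 or 3 or any GRMREmx1-cre array (1.77 to 2.25).

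A group of these dim rises belongs to the olfactory receptor family. Of 300 tested olfactory receptor genes 36 rose and 5 fell, beside 2.35% and 0.625% of all tested genes. Those shares include the brighter genes, of which 1.07% rose, so they are not a like background for a dim family. Some of the 36 entered the test only through the GRMREmx1-cre arrays, and their number was not counted. Their median was 0.35, against 0.07 for the dimmer genes, and 3 were among the brighter genes. Their median level in MREmx1-cre was -5.41. The named ones were Olfr979 (at least 4.90-fold), Olfr218 (at least 3.86-fold), Olfr295 (at least 3.27-fold), Olfr1044 (at least 2.65-fold) and Olfr73 (at least 2.53-fold), with Olfr1101 and Olfr620 at 2.11 and 2.10 log2 units. The calls of Olfr218 and Olfr1101 held without any single array. Those of Olfr295 and Olfr1044 held in the 12 such fits that tested them. All 12 kept the 3 GRMREmx1-cre arrays through which these 2 genes entered the test, so that is no support for them. With bright local backgrounds replaced before normexp correction Olfr1044 (0.29) and Olfr73 (0.26) lost the call, as Olfr73 and Olfr979 did with quantile normalization (1.6 and 2.48). Those of Olfr979 and Olfr73 were lost without MREmx1-cre replicate 2 or 4 or any GRMREmx1-cre array (2.41 to 2.96 and 1.5 to 2.01), and that of Olfr620 without MREmx1-cre replicate 2 or 3 or any GRMREmx1-cre array (1.77 to 2.43). Vomeronasal receptor genes, with a median level of -5.95, had 3 rises and 1 fall among 35, and taste receptor genes 1 rise among 6, beside the same shares of all tested genes. Low signal moves with these families, and its part in the result was not tested.

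Astrocyte genes moved both ways. Aqp4, the water channel of astrocyte end-feet, stood at 1.76, 1.68, 1.59 and 1.64 in MREmx1-cre and at 2.27, 2.16 and 2.31 in GRMREmx1-cre (0.58 ± 0.111, adjusted p = 0.0149). Gja1, the main gap junction protein of astrocytes, went from 0.99, 1.04, 0.75 and 0.87 to 1.25, 1.52 and 1.37 (0.47 ± 0.0744, adjusted p = 0.00509). Neither gene's groups overlapped, while Aldoc fell as given above. The Gja1 call was lost in a fit of the 7 arrays alone. The other 16 of the 19 tested astrocyte markers did not pass, and the list's median was 0.00. Slc1a2 and Aldh1l1, which define the cell type, stood at -0.10 and -0.01, and Gfap at 0.09 (adjusted p = 0.73). The Aqp4 call was lost without GRMREmx1-cre replicate 1 or 3 (0.55 to 0.62), and its other probes stood at 0.48 and 0.47 without passing. In the list of reactive astrocyte genes, S100a10 and the lipid receptor gene S1pr3 (0.31, adjusted p = 0.018, lost without GRMREmx1-cre replicate 2 or 3, 0.26 to 0.35) rose, and 14 of 17 members were above 0 with a median of 0.16. Cd44 stood at 0.72 (adjusted p = 0.0615) and Serpina3n at 0.34 (adjusted p = 0.336). Hopx, a homeodomain protein of astrocytes and neural stem cells that had been placed in the list of progenitors and immature granule neurons, rose as the single called member of 18 (0.49 ± 0.0801, adjusted p = 0.00619, not called in a fit of the 7 arrays alone).

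Markers of the other hippocampal cell types had few or no called members. Dentate granule cell markers leaned low, with 22 of 25 below 0 and a median of -0.13 (0 called by limma; at unadjusted p below 0.05, 1 higher and 4 lower). The desmosome gene Dsp stood at -0.54 (adjusted p = 0.0677), Calb1 at -0.14 and Prox1 at -0.14. For Dsp the group means were 0.04 in dflox, -0.05 in GREmx1-cre, -2.44 in MREmx1-cre and -2.97 in GRMREmx1-cre. Oligodendrocyte and myelin genes also leaned low, 18 of 20, with a median of -0.12 (0 called, 2 lower at unadjusted p below 0.05). Microglial genes leaned high, 20 of 23, with a median of 0.14 (0 called, 6 higher at unadjusted p below 0.05). Over all tested genes 50.4% were above 0, and the members of a list share their arrays. Of the CA1 markers Spink8 and of the CA2 markers Ccdc3 were called, with medians of -0.03 and 0.01 over 12 and 14 members. None of the 18 CA3 or 17 interneuron markers passed (0 at unadjusted p below 0.05 in either list). The choroid plexus, a tissue that borders the hippocampus and can come along in dissection, had 17 of 18 markers above 0 and a median of 0.25 with 0 called, also at unadjusted p below 0.05. Transthyretin (Ttr), its most abundant secreted product, was at -2.58 on MREmx1-cre replicate 2 and between 3.38 and 4.77 on the other 6 arrays (1.07 ± 1.32, adjusted p = 0.749). That median depended on single arrays: it was -0.64 without MREmx1-cre replicate 2 and 0.84 without MREmx1-cre replicate 3. Without MREmx1-cre replicate 2, 420 genes were called higher and 77 lower. The part of choroid plexus RNA in other results was not tested. No member was called by limma among 13 oligodendrocyte progenitor, 27 endothelial and pericyte, 19 fibroblast, 13 thalamic, 10 striatal, 14 neocortical and 5 red cell genes, whose medians lay between -0.02 and 0.09. At unadjusted p below 0.05 those lists held 1 fibroblast and 2 thalamic genes higher and 1 striatal gene lower.

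**Figure D3:**
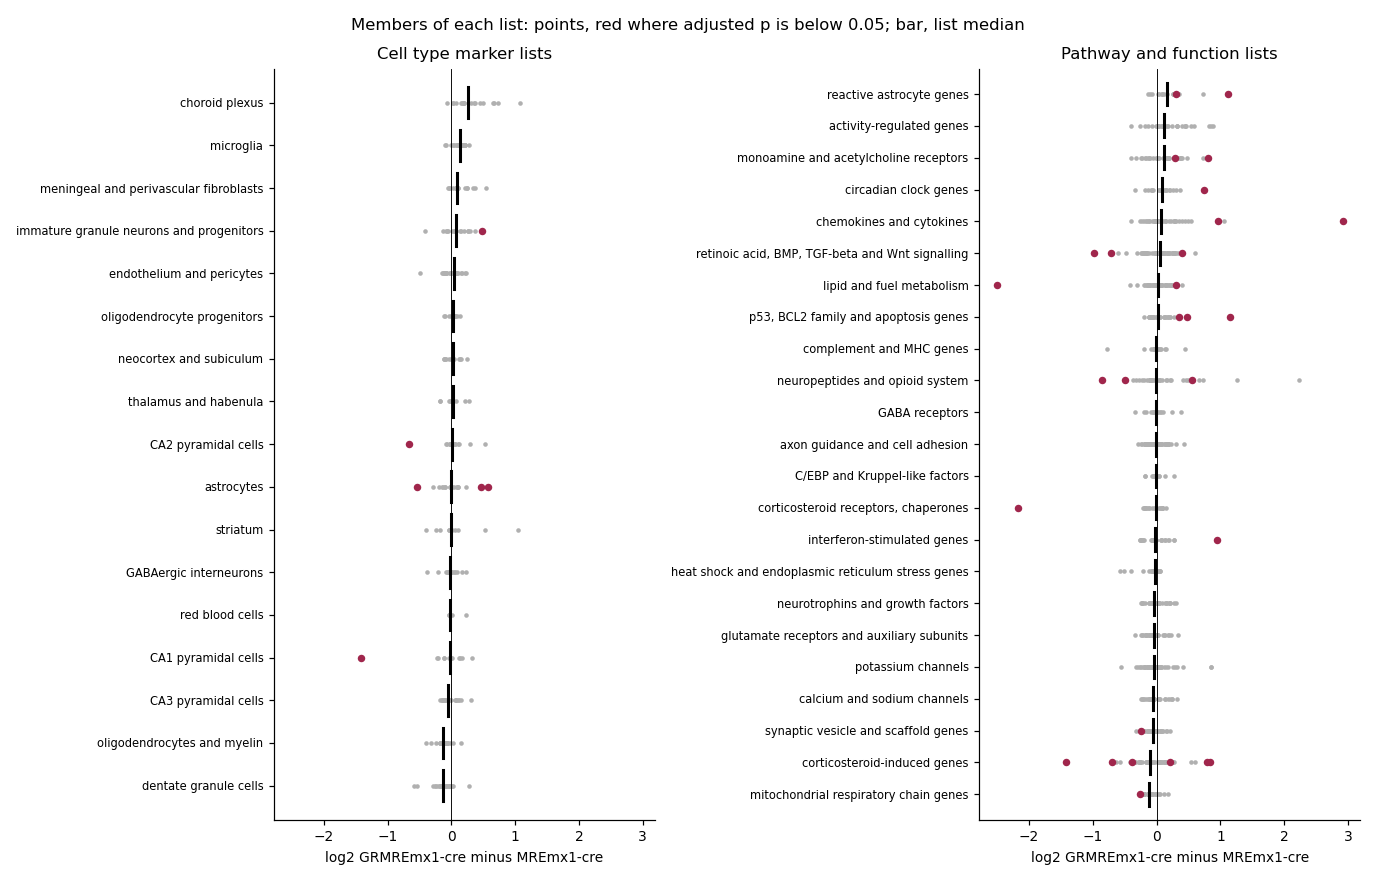
Log2 GRMREmx1-cre minus MREmx1-cre for the tested members of 17 marker lists (left) and 23 pathway and function lists (right), 1 point per gene, red where the adjusted p is below 0.05, with the median of each list as a bar. Medians run from -0.13 for dentate granule cells to 0.25 for the choroid plexus, and no list holds more than 6 red points.

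Over the 40 lists, 34 of 1029 list memberships tested were called, 20 up and 14 down, beside 2.98% of all tested genes. In the immune lists the called members were Cxcl5 and the chemokine Ccl4 (0.97, adjusted p = 0.014, lost without GRMREmx1-cre replicate 1 or 2, 0.89 to 1.13) of 38 chemokines and cytokines. Ifit3 was the called member of 29 interferon-stimulated genes, whose median was -0.02. Ccl3 stood at 1.06 (adjusted p = 0.0732) and the alarmin Il33 at 0.53 (adjusted p = 0.0787). The chemokine and cytokine list had a median of 0.07, or -0.03 among its brighter genes, with 24 members above 0 and 14 below, Il15 lowest at -0.40. At unadjusted p below 0.05, 7 of its members were higher and 2 lower, beside 10% and 7.18% of all tested genes. None of 17 complement and MHC genes passed (1 higher at unadjusted p below 0.05). In the list of BMP, TGF-beta, Wnt and retinoic acid signalling, Lefty1 and Aldh1a1 fell and the Wnt target Axin2 rose (0.39 ± 0.0699, adjusted p = 0.0104, lost without GRMREmx1-cre replicate 2, 0.35 to 0.43). Among 44 genes of lipid and fuel metabolism Etnppl fell and Idi1 of sterol synthesis rose by 0.30 (adjusted p = 0.0493), while Hmgcs1 stood at 0.23 (adjusted p = 0.0717). Among 31 genes of p53 and apoptosis, Tnfrsf10b (1.15, with another probe at -0.56), the survivin gene Birc5 (0.47) and Gadd45a (0.35) rose. The clock gene Per3 rose from a low level (0.75, adjusted p = 0.0119) as the single called member of 20. Idi1, Gadd45a, Tnfrsf10b, Birc5 and Per3 all lost their call without GRMREmx1-cre replicate 2. They also lost it without GRMREmx1-cre replicate 1 (Per3, Birc5, Tnfrsf10b, Idi1) or 3 (Tnfrsf10b, Gadd45a, Idi1), and all but Per3 without MREmx1-cre replicates 1 and 3. MREmx1-cre replicate 4 ended the calls of Birc5, Gadd45a and Idi1, and replicate 2 that of Tnfrsf10b. Several dflox and GREmx1-cre arrays ended those of Gadd45a and Idi1. Over the arrays left out the differences ran from 0.65 to 0.87 for Per3, 0.42 to 0.55 for Birc5, 1.02 to 1.31 for Tnfrsf10b, 0.28 to 0.41 for Gadd45a and 0.25 to 0.35 for Idi1. Among 21 heat shock genes none passed (4 lower at unadjusted p below 0.05, median -0.03).

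Neuronal signalling lists held scattered calls. The tryptophan hydroxylase gene Tph2 (0.81, adjusted p = 0.027) and the adenosine receptor gene Adora2a (0.28, adjusted p = 0.0481, another probe at -0.19) rose among 34 genes of monoamine, acetylcholine and adenosine signalling. The somatostatin receptor gene Sstr4 (0.56, adjusted p = 0.0146) rose beside the falls of Cort and Crhbp among 33 genes of the neuropeptide list. Each of these 3 rises was lost without GRMREmx1-cre replicate 2, Tph2 (0.63 to 0.93) also without MREmx1-cre replicate 3 or GRMREmx1-cre replicate 1. Adora2a (0.24 to 0.33) lost its call without any of 13 arrays, all but GREmx1-cre replicate 4 and MREmx1-cre replicate 1. Sstr4 ran from 0.49 to 0.63. Syp was the called member of 40 synaptic vesicle and scaffold genes, 29 of which were below 0 (median -0.06). No member passed among 33 glutamate receptor genes, 15 GABA receptor genes, 56 potassium channel genes, 29 calcium and sodium channel genes, 32 growth factor genes and 54 axon guidance genes, where 2, 2, 4, 2, 2 and 2 members were higher and 4, 0, 6, 3, 2 and 3 lower at unadjusted p below 0.05. Activity-regulated genes, which neurons switch on within minutes of firing, had 0 called of 32, with 6 higher at unadjusted p below 0.05 and 26 above 0 (median 0.12). Arc stood at 0.86 (adjusted p = 0.0967), Fosb at 0.58 (adjusted p = 0.12), Fos at 0.82 (adjusted p = 0.297) and Egr2 at 0.89 (adjusted p = 0.213). Mitochondrial respiratory chain genes leaned low, with 30 of 35 below 0, a median of -0.12 and 15 lower at unadjusted p below 0.05 (Ndufa9 called), but quantile normalization moved that median to -0.02.

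The same genes were read where MR is present, in GREmx1-cre against dflox, which share no array with the comparison above. By the design as read here that pair also differs in Emx1-Cre, which cannot be told apart from GR loss there. There 721 genes (3.15%) were called, 518 higher (2.26%) and 203 lower (0.888%). Etnppl was lower in that pair too (-3.12 ± 0.324, adjusted p = 0.000563), as were Nr3c1 (-2.24 ± 0.0776, adjusted p = 1.36e-08) and Cyp4f15 (-1.06 ± 0.147, adjusted p = 0.00346). For these 3 genes the difference between the pairs (interaction) did not pass, with estimates of 0.61 ± 0.477, 0.06 ± 0.114 and -0.46 ± 0.217. S100a10 (0.67 ± 0.0831, adjusted p = 0.00194) and F9 (0.83 ± 0.0846, adjusted p = 0.00047) rose in both pairs. Of the 538 risers, 439 (81.6%) were also above 0 with MR present, at a median of 0.17 against 0.60 without MR, and 72 were called in the same direction and 1 in the opposite one. Risers and fallers were picked by their difference without MR, which by itself makes their median larger in that pair. The medians of the 2 pairs therefore do not measure how far the effect differs between them. Over all tested genes 51.8% had the same sign in both pairs. Of the 143 fallers, 55 (38.5%) were below 0 with MR present, where their median was 0.06. In the fallers, 8 were called in the same direction and 17 in the opposite one. Among brighter genes, tested alone, 25 of 53 fallers (47.2%) were below 0 with MR present, at a median of 0.01. Of these, 3 were called in the same direction and 1 in the opposite one. Of the 82 brighter risers 62 (75.6%) were above 0, with 14 called in the same direction and 0 in the opposite one. Over all brighter genes 47.9% had the same sign in both pairs.

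The interaction, which tests whether the difference within the pair without MR equals that within the pair with MR, was called for 295 genes (1.29%), 117 positive (0.512%) and 178 negative (0.778%), and 128 of them were also called in GRMREmx1-cre against MREmx1-cre. The pair with MR also differs in Emx1-Cre by the design as read here, and each group lay on its own slide. Dependence on MR cannot be told apart from these. Rasd1 is one of them: dflox and GREmx1-cre stood at 0.90 and 0.89, MREmx1-cre at -0.68 and GRMREmx1-cre at -2.10, so that the fall with GR loss was seen in the pair without MR (interaction -1.42 ± 0.300, adjusted p = 0.0449). Chrdl1 rose more without MR than with it (interaction 1.08 ± 0.134, adjusted p = 0.00453, with 0.38 where MR is present), as did Kcne1l (0.55, adjusted p = 0.0181), Tat (0.63, adjusted p = 0.048), Hopx (0.55, adjusted p = 0.0341) and Ghrl (1.33, adjusted p = 0.0394). Positive interactions were also called for the dim transcripts Olfr73, Olfr218, Olfr1044, Olfr1101 and Tnfsf12, of which all but Olfr1101 were well above background on no MREmx1-cre array, so that no size is given. Olfr1044 and Tnfsf12 entered the test through the GRMREmx1-cre arrays alone, where they are high, so their interactions are given as a description. Negative ones were called for Crnde (-2.76), Ugt3a2 (-1.61), Tfap2b (-1.45), Olfr401 and D130040H23Rik. Olfr401 was well above background on no GRMREmx1-cre or dflox array, and D130040H23Rik on 3 GREmx1-cre arrays alone, through which it entered the test. Crnde stood at -0.16 here and was higher in GREmx1-cre than in dflox by 2.60. Crnde, D130040H23Rik and Tat, whose probe is dim, lie on the chromosome of Nr3c2. Among the 200 tested genes nearest to Nr3c2, 19 (9.5%) had a called interaction and 48 (24%) were called in GREmx1-cre against dflox, beside 1.035% and 2.877% of the other genes with a known place. GREmx1-cre, unlike the other 3 groups, carries no floxed Nr3c2 allele by the design as read here, so allele and GR loss cannot be told apart there. In GRMREmx1-cre against MREmx1-cre 4 of those 200 genes were called (2%), beside 2.757% of the others. With single arrays left out the count of interactions ran from 81 (without GRMREmx1-cre replicate 2) to 435 (without MREmx1-cre replicate 1). It was 102 without GRMREmx1-cre replicate 3, 126 and 146 without MREmx1-cre replicates 3 and 4, 169 and 143 without dflox replicates 1 and 3, and 196, 148 and 150 without GREmx1-cre replicates 2, 3 and 4.

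**Figure D4:**
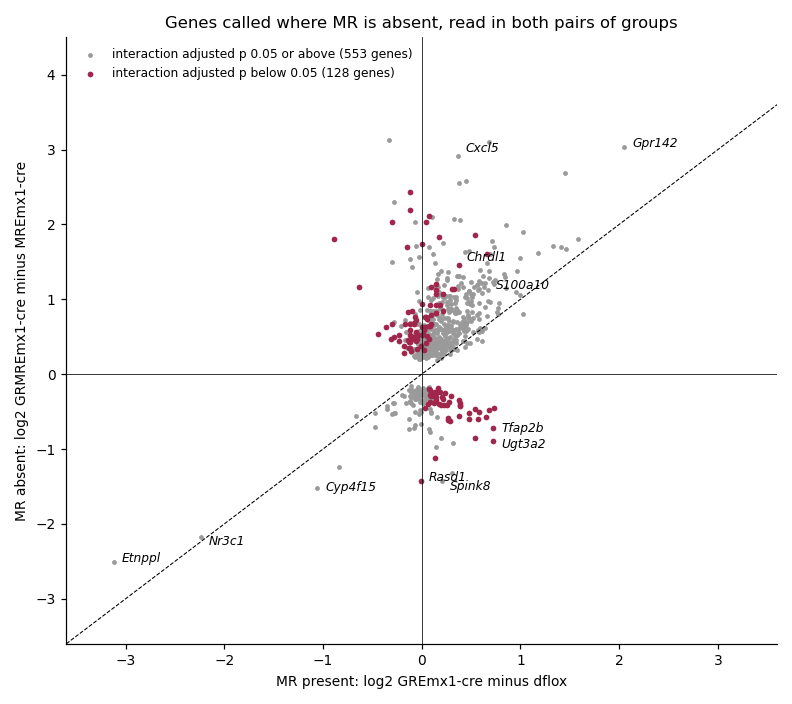
Log2 difference in the pair without MR (vertical axis, GRMREmx1-cre minus MREmx1-cre) against the pair with MR (horizontal axis, GREmx1-cre minus dflox) for the 681 genes called in the first pair. Red points are the 128 whose interaction passed adjusted p 0.05, and the dashed line marks equal differences. Etnppl, Nr3c1 and Cyp4f15 lie low on both axes, while Rasd1 lies at -1.42 on the vertical axis and near 0 on the horizontal one.

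GRMREmx1-cre carries the floxed Nr3c1 allele and MREmx1-cre by the design as read does not, so genes beside Nr3c1 were counted apart. Of the 200 tested genes nearest to Nr3c1, 100 on either side, 4 were called (2%), all higher, beside 2.75% of 15744 other genes with a known place. They were the mechanosensitive channel gene Piezo2 (0.58), the protocadherin genes Pcdhga4 (0.59) and Pcdh1 (0.25) and Scgb3a2 (0.51). Within 20 genes on either side, a window chosen after the values were seen, 3 of 40 were called (7.5%). Piezo2 and Pcdhga4 lost the call without GRMREmx1-cre replicate 2, Scgb3a2 without GRMREmx1-cre replicate 1 or 2, and Pcdh1 without any one of the 7 arrays. Over the arrays left out they ran from 0.54 to 0.63, 0.47 to 0.66, 0.46 to 0.57 and 0.24 to 0.27.

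Promoters were read for the element that GR and MR share, AGAACA, any 3 bases, TGTTCT, and for its single arms AGAACA or TGTTCT on either strand, in the RefSeq promoter table of build GRCm38.p6 (250 bases before to 50 after each start). Of 12673 tested genes with a promoter there, 1 (0.00789%) held the full element, and none of 249 risers or 97 fallers did. An arm was found for 16.0% of all these genes, for 21.3% of the risers and 19.6% of the fallers. Among brighter genes, tested alone, it was found for 4 of 41 risers (9.76%) and for 17.95% of the fallers. A match is a description of letters, and no match says nothing of either receptor. The 250 bases before the start are shown for the 2 largest falls outside Nr3c1 and for 2 of the dim rises given above, Etnppl (first of 2 starts, chr3:130617198-130617447 on the plus strand), Cyp4f15 (chr17:32685409-32685658 on the plus strand), C1qtnf3 (chr15:10952082-10952331 on the plus strand) and Pdcl2 (chr5:76331157-76331406 on the minus strand), none of which holds an arm. Fam107a (first of 3 starts, chr14:8309778-8310027 on the minus strand), added after the values were seen, is shown because it is a faller with both arms, marked in capitals. All are written 5′ to 3′ on the gene's strand.
Etnppl: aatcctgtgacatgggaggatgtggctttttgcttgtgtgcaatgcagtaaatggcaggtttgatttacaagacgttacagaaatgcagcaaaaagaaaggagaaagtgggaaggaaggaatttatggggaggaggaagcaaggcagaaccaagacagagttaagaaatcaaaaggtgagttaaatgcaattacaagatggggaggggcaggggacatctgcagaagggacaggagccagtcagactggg
Cyp4f15: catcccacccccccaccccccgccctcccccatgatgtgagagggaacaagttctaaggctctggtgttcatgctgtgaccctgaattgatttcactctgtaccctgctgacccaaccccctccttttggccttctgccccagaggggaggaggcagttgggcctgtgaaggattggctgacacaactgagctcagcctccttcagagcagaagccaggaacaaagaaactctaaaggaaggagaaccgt
C1qtnf3: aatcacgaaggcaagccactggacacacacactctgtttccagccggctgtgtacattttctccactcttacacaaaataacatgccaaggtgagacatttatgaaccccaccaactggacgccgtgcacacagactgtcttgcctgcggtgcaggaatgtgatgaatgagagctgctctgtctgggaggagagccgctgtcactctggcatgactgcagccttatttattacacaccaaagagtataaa
Pdcl2: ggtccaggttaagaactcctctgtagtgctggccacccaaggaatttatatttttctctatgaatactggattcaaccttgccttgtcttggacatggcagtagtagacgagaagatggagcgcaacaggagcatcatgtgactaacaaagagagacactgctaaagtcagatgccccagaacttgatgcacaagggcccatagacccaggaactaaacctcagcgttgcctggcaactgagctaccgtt
Fam107a: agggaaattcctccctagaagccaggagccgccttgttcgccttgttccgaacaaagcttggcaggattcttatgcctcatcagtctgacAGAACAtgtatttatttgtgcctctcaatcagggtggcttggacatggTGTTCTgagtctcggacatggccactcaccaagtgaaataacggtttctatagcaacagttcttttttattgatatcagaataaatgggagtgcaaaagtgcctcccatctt
In Fam107a the arms AGAACA and TGTTCT lie apart and not at the spacing of 3 bases of the full element, and the gene fell by 0.70 log2 units as given above.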

How the data were processed

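Hippocampal RNA of 15 samples was labelled with Cy3 and hybridised to 1-colour Agilent arrays, per the labels' protocols. The authors deposited scanner output of Feature Extraction 12.0, whose processed signal is a background-corrected intensity per spot, per the file headers, together with flags for detection and outliers that are deposited as other values of 0 or 1. A deposited value table held the same intensity at 45018 of 45018 spots. Sample groups came from the sample titles.

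Log2 of the processed signal minus the 75th percentile of the array over non-control spots was used. Control spots and 1281 outlier-flagged spots were left out, and spots of a probe were averaged. A probe was tested if it was well above background on at least 3 of the 15 arrays. A gene was read from 1 probe, the tested one with the highest mean over all arrays (30882 probes, 22872 genes). Symbols, places and promoters came from RefSeq tables of GRCm38.p6. limma 3.58.1 (R 4.3.3) was fitted to the 4 group means of all 15 arrays, with Benjamini-Hochberg adjustment over all tested genes (threshold 0.05). The steps were tested on simulated data.

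Named genes were Nr3c1, Nr3c2, the 15 largest rises and 15 largest falls with a symbol whose groups did not overlap, up to 3 called members of each list, the 5 largest interactions each way and called genes beside Nr3c1. The 12 largest brighter rises and falls whose groups did not overlap, the 8 smallest p each way, Mt1, Ppp5c and the uncalled list members were chosen after their values were seen. The members, the 40 gene lists and the tests were chosen with earlier results of these data known. The mean signal planned for normexp was not used here, and the median signal took its place. Replicate numbers were not used to pair the samples. Alternatives were other scalings, background corrections, filters, variance models, probe averages, a replicate block and each array left out.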

Additional observations from a re-analysis of the deposited data

Results flagged for a closer look

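Among the named genes, 13 of 258 sets of 4 arrays had 1 array far from the other 3, where chance flags about 1 in 20 sets. In MREmx1-cre these were F9 on replicate 2 (-3.483), Olfr1044 on replicate 2 (-7.429) and Pdk4 on replicate 1 (-0.2831). In GREmx1-cre they were Ccdc3 on replicate 3 (-2.111), Gm34996 on replicate 4 (-1.204), and on replicate 1 Cyp4f15 (-1.123), Htr2b (-6.531), Ppp5c (2.212) and Tlx2 (-1.593). In dflox they were Chrdl1 on replicate 1 (-2.521), S1pr3 on replicate 2 (-1.39), Them4 on replicate 3 (0.6481) and Olfr979 on replicate 4 (-6.672). All are log2 levels relative to the 75th percentile.

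Mean levels of 4 of the 40 gene lists had such an array in MREmx1-cre. The mean of the CA3 markers was -0.1696 and that of the heat shock genes 0.09365 on replicate 3. The mean of the neuropeptide list was 0.09052 on replicate 2 and that of the mitochondrial genes -0.0854 on replicate 1.

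By the interaction test, GRMREmx1-cre minus MREmx1-cre differed from GREmx1-cre minus dflox for 22 named genes. The pair with MR also differs in Emx1-Cre by the design as read here, and the part of Cre was not tested. The difference was more positive without MR for Chrdl1 (1.08), Ghrl (1.33), Hopx (0.55), Kcne1l (0.55), Prodh2 (0.95), Tat (0.63), Tnfsf12 (1.98), Olfr73 (2.70), Olfr218 (2.33), Olfr1044 (2.31) and Olfr1101 (2.04). It was more negative without MR for Crnde (-2.76), D130040H23Rik (-2.92), Ndufa9 (-0.39), Nr3c2 (-0.62), Rasd1 (-1.42), Syp (-0.37), Tfap2b (-1.45), Ugt3a2 (-1.61), Olfr127 (-1.39), Olfr288 (-1.25) and Olfr401 (-1.62). The values of Tnfsf12, Olfr73, Olfr218, Olfr1044, Olfr401 and D130040H23Rik rest on groups not well above background and are not measures of size. Tnfsf12, Olfr1044 and D130040H23Rik entered the test only through the group where they are high, so theirs are given as a description. Of the 22, Crnde, D130040H23Rik, Nr3c2 and Tat lie on the chromosome of Nr3c2, for which GREmx1-cre differs in floxed allele by the design as read here, and the part of that allele was not tested.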

How the results depend on the processing

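Nr3c1 fell under all alternatives run (-2.24 to -1.96). The 681 calls numbered 585 with quantile normalization, 454 with median scaling and 766 with bright local backgrounds replaced before normexp correction, of which 481, 405 and 487 were among the 681. Normexp on all spots as they are gave 13676 calls (10775 up, 2901 down, 9877 at 1.5-fold), 438 called list members, 101 calls beside Nr3c1 and 1 interaction. On the GRMREmx1-cre arrays 4, 7 and 8 spots had a local background above 200, against 0 on the others. With it Ccdc3 (0.46), Crnde (1.28), D130040H23Rik (1.64), Gm34996 (0.996), Gm9895 (0.97), Nr3c2 (1.01), Olfr127 (1.27), Olfr288 (1.06), Olfr401 (1.48), Tfap2b (1.11), Trim29 (1.33), Ugt3a2 (1.12) and Ppp5c (-0.0645) changed sign. After replacement, added after seeing the data, 93 genes passed at 1.5-fold, 132 interactions were called and D130040H23Rik stood at 0.0314.

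Of the named genes, 33 lost their call in a fit of the 7 arrays alone, 13 with median scaling, 11 with bright local backgrounds replaced and 4 with quantile normalization. Median scaling left 285 rises, 182 interactions and 2 calls beside Nr3c1. A fit of the 7 arrays alone left 34 falls, 2 calls beside Nr3c1 and 18 called list members. No filter on dim probes left 71 falls and 138 interactions. Averaging probes put Nr3c2 at 0.11. The brighter genes alone, another setting added after seeing the data, gave 135 calls (82 up, 53 down, 23 at 1.5-fold). Leaving out single arrays gave 217 to 752 calls (190 to 603 up, 27 to 149 down, 148 to 352 at 1.5-fold), 81 to 435 interactions, 1 to 5 calls beside Nr3c1 and 14 to 36 called list members, and put D130040H23Rik at -0.27 to 0.24 (0.0595 without GRMREmx1-cre replicate 2). A replicate block gave 802 calls (667 up, 135 down), but same-numbered samples deviated together only weakly (correlations -0.00504, 0.119 and -0.0261). The numbers were therefore not used to pair them, though such correlations cannot exclude a pairing.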
